A study of Mus musculus with 8 samples.

Results

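Tandem polyadenylation sites (PASs) in the 3′-most exon give a gene a short and a long mRNA isoform with the same 3′-terminal exon. The pairs described here are moderately spaced. A gene was taken from a deposited table when that table listed exactly 2 PASs for it, both of the type 3′-most exon, at positions 300 to 1500 nt apart. All such genes were kept, whether or not their PAS usage differed between libraries. They numbered 893 of 10452 genes in the table of AS against NT, 856 of 10081 for RC4 and 888 of 10441 for RC8. In all, 1098 of 10690 genes were members in at least 1 table. Of these, 677 were members in 3 tables, 185 in 2 and 236 in 1. Of the 421 genes that were members in 1 or 2 tables, 371 were listed in all 3 tables, with PASs that did not meet the rule in each, and 50 were not listed in at least 1 table. The same 2 positions were listed in 3 tables for 578 genes.

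The cells were NIH3T3, an established mouse fibroblast line, grown without any genetic change in DMEM with 10% calf serum while proliferating. NT cells were nontreated. AS cells received 250 µM sodium arsenite, an oxidative stressor, for 1 h, and RC4 and RC8 cells received the same treatment and then 4 h or 8 h of recovery in arsenite-free medium. By the labels each condition has 1 QuantSeq FWD library, a 3′ end method that starts at the poly(A) tail and reads near the PAS. The deposited reads of each library are in 2 columns, and whether these are runs of 1 library or separate samples is not given in the sources used here. They were added. With 1 library per condition, no test was made, and every difference below is between 2 libraries. AS, RC4 and RC8 were each compared with the same NT library, so their differences from NT are not independent of one another.

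The mRNA 3′ end is made by endonucleolytic cleavage followed by poly(A) addition. The cleavage and polyadenylation specificity factor reads a hexamer, most often AATAAA in the DNA, upstream of the cut, and the cleavage stimulation factor reads U-rich or GU-rich sequence downstream of it. A promoter-proximal PAS is transcribed first and often has a weaker signal than the distal one. The stretch between both PASs is present in the long isoform only. It can hold AU-rich elements, Pumilio sites and microRNA sites, which act on mRNA decay, translation and localization.

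The PASs of the genes at the ends of the distribution of changes are shown as the 30 bases that end at the listed position, written 5′ to 3′ on the transcribed strand of mm9. Capitals mark a match to a poly(A) signal hexamer, which is a match of letters and not a proven signal. At the proximal PAS of Cmpk1 the match ends at the listed base itself. Papd4 had the lowest change in distal over proximal in AS, Hmgb2 in RC4 and Hnrnpf in RC8, among the genes named by the rule given in the processing. Cenpf had the highest in AS and RC4 and Pes1 in RC8. Cmpk1 was among the 6 lowest in both RC4 and RC8.

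Papd4 proximal: aagaAATAAAgaacaacagatctatcataa
Papd4 distal: aaatggAATAAAgtttatatctggacattg
Hmgb2 proximal: gaggaagaggaggaagatgacgaggaagaa
Hmgb2 distal: ttgtAATAAAataatgtatattaatttgca
Hnrnpf proximal: ggtgatgcagggcatgggcgtgtcagctgc
Hnrnpf distal: aaAATAAAgactttttcacaatgactggca
Cmpk1 proximal: gtctagaaatatatagtaagacaaATTAAA
Cmpk1 distal: cttgctttttcAATAAAgtttgaagtccaa
Cenpf proximal: tggtgatatATTAAAgtatgtccttgtaaa
Cenpf distal: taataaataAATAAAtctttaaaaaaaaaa
Pes1 proximal: agcttttattATTAAAtggttggatcttta
Pes1 distal: ttgtatgtacaaaagtatgtatggttcaca

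Papd4 carries AATAAA at both PASs, whereas Hmgb2 and Hnrnpf carry it at the distal PAS alone. The proximal PASs of Hmgb2 and Hnrnpf have none of the hexamers searched within 40 nt, and both lie in the annotated coding sequence of the last exon rather than in the 3′UTR. The purine-rich proximal site of Hmgb2 lies in the part of the gene that codes for its acidic tail. The distal PAS of Cenpf is the last base of a run of 10 A in the genome. Pes1 has the opposite arrangement, with ATTAAA at the proximal PAS and no hexamer at the distal one.

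Over the 1216 distinct pairs of positions, the distal PAS more often had a match to AATAAA or ATTAAA upstream than the proximal PAS. AATAAA was found within 40 nt upstream of 32.1% of proximal and 50.7% of distal PASs, and ATTAAA upstream of 12.7% and 13.6%. Together both hexamers were at 44.8% of proximal PASs (42.0% to 47.6%, 95% Wilson interval) and 64.2% of distal PASs (61.5% to 66.9%). Where neither was found, 1 of 10 variants was found at 22.2% of proximal and 15.7% of distal PASs, beside 22.2% and 15.0% over all tandem pairs. The variants were AGTAAA and TATAAA and CATAAA and GATAAA and AATATA and AATACA and AATAGA and AATGAA and ACTAAA and AAGAAA. Among the PASs of all 3327 tandem pairs at any distance, AATAAA or ATTAAA was at 35.0% of proximal and 64.5% of distal PASs. The lower proximal share over all pairs went with the pairs under 300 nt, at 22.0% of proximal PASs. TGTA, the core bound by cleavage factor I, was within 100 nt upstream of 50.5% of proximal and 59.4% of distal PASs, against 50.6% and 59.9% over all pairs. TGTG was within 40 nt downstream of 26.2% and 31.7%, against 27.8% and 33.5%. These searches read the transcribed strand only and the matches can overlap.

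In the GENCODE vM1 annotation of the same build, 1099 of the pairs belong to a listed gene symbol. Of their proximal PASs, 1031 lie in an annotated 3′UTR, 18 in coding sequence only and 40 outside any exon of the gene. Of their distal PASs, 809 lie in an annotated 3′UTR and 279 outside any exon of the gene, so that 25.4% of the distal PASs are not placed in an annotated transcript. Among the named genes, this holds for the distal PASs of Papd4, Hnrnpf, Cox11, Haus1 and Hmga1 and for both PASs of Zbtb12. For the 1048 pairs with a 3′UTR length, the median 3′UTR was 420.5 nt to the proximal PAS and 1364.5 nt to the distal PAS, and the long form was a median of 2.70 times as long as the short form. The median distance between the PASs was 735 nt.

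Reads on genes numbered 22.4 M to 23.0 M per library, and members held 6.40% to 6.94% of them. The median member had 746 to 787 reads in NT and 666.5 to 773 reads in a treated library. The lowest number was 50, and 98 to 128 members per table had under 200 reads in at least 1 library. Fibroblast markers were listed as 7 of 7, with a summed level of 15350 to 15392 rpm (reads per M reads on genes) in NT and of 15891, 12048 and 9382 rpm in AS, RC4 and RC8. None of the 9 epithelial, leukocyte and endothelial markers was listed in any table, which holds genes with at least 50 reads. The lower sum of fibroblast markers in RC4 and RC8 moved with the treatment, and its part in the results below was not tested.

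In NT the distal isoform was the more abundant isoform of most members. Of the members of the AS table, 534 of 893 had more distal than proximal reads, or 59.8%, and the log2 distal over proximal ratio had a median of 0.72. That median was 0.62 over all tandem pairs, 0.54 in pairs under 300 nt and 0.77 in pairs over 1500 nt. The NT ratio of the members spanned −4.16 to 5.08, with quartiles at −1.04 and 2.22. By the paper, PASs were selected at a proportion of 5%, which limits how rare an isoform of a listed pair can be. Single fractions of members in the AS table still reached down to 2.55%. The span is thus partly set by this selection. For the 578 genes with the same positions throughout, the NT ratios of the 3 tables were within 0.05 of one another on the log2 scale in 569 genes. In those 578 genes, the median distal share of the NT, AS, RC4 and RC8 libraries was 59.95%, 56.85%, 52.55% and 57.2%. RC4 thus had the lowest share of long isoforms of the 4 libraries. The distal isoform was the major one in 334, 319, 308 and 321 of these genes in NT, AS, RC4 and RC8. Genes with a major distal isoform were not counted over all tandem pairs, so whether these numbers are particular to this distance is not shown.

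The change is the log2 distal over proximal ratio of a treated library minus that of NT, so a negative value is a shift toward the short isoform. After arsenite, the median change of the members was −0.14 (−0.17 to −0.12, 95% order-statistic interval over genes), with quartiles at −0.42 and 0.07. At RC4 it was −0.32 (−0.36 to −0.29), with quartiles at −0.70 and 0.00. At RC8 it was −0.16 (−0.22 to −0.13), with quartiles at −0.61 and 0.20. The median counting error of a single gene's change was 0.20 to 0.22, so the middle of the AS and RC8 distributions lies within the counting error of 1 gene. That error was computed from reads per gene times the deposited fractions and covers the counting of reads only, and neither it nor an interval over genes includes variation between cultures. The reads carry no molecular identifiers, so they are not counts of separate molecules.

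**Figure D1:**
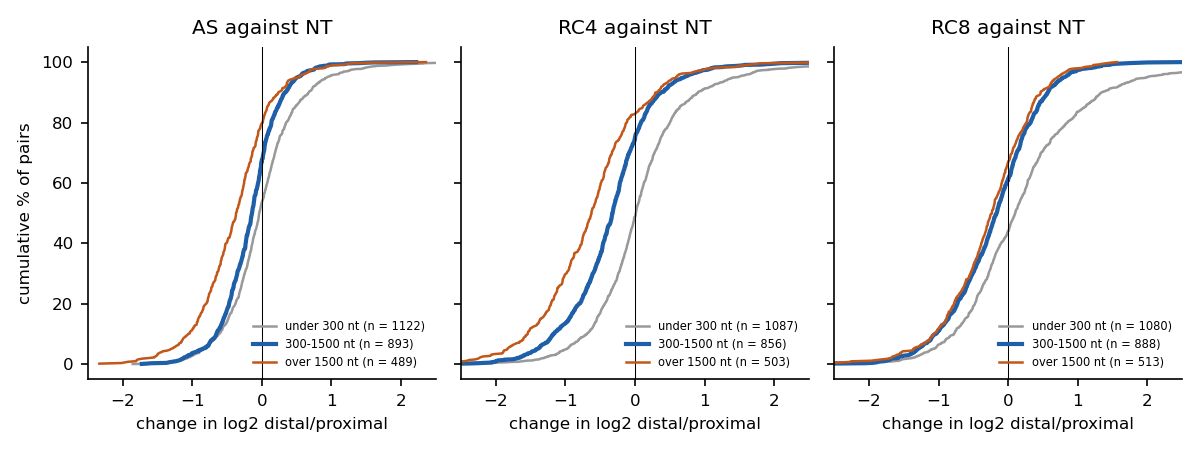
Cumulative percent of pairs (y axis) against the change in log2 distal over proximal from NT (x axis, shown from −2.5 to 2.5) for pairs under 300 nt, 300 to 1500 nt and over 1500 nt apart, 1 panel per comparison. The line of the 300 to 1500 nt pairs crosses the middle at −0.14 in AS, −0.32 in RC4 and −0.16 in RC8.

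More members had a lower ratio than a higher one in every comparison. In AS, 67.2% of members were below NT, beside 63.4% of all tandem pairs of that table. In RC4 74.5% were below NT, beside 64.7%, and in RC8 60.8%, beside 54.6%. Changes of at least 2-fold toward the short isoform were found in 33 members in AS (3.70%, 2.64% to 5.14%, 95% Wilson interval), beside 4.83% of all tandem pairs. They were found in 116 members in RC4 (13.6%, 11.4% to 16.0%), beside 13.0%, and in 97 in RC8 (10.9%, 9.04% to 13.1%), beside 9.19%. In each of the 3 tables the background lay within the interval of the members' share.

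Changes of at least 2-fold toward the long isoform were fewer. They were found in 7 members in AS (0.784%), beside 2.48% of all tandem pairs, in 23 in RC4 (2.69%), beside 5.36%, and in 24 in RC8 (2.70%), beside 8.54%. The members' shares were below the background in all 3 tables. Most of the called pairs of that background lie under 300 nt apart, where 49 of 62, 95 of 131 and 177 of 212 of them were found. These were 4.37%, 8.74% and 16.4% of the pairs at that distance. By the paper, reads were assigned to PASs with a model of the distance between read and PAS. Reads of close PASs can therefore overlap in position. How well the fractions of such pairs are separated was not tested, and the counting error does not cover it. The major isoform turned from distal to proximal in 33 members in AS (3.70%), 48 in RC4 (5.61%) and 41 in RC8 (4.62%), beside 3.99%, 5.60% and 3.99% of all tandem pairs. It turned from proximal to distal in 12 (1.34%), 13 (1.52%) and 22 (2.48%), beside 2.36%, 3.03% and 3.99%.

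The median change was more negative at longer distances in AS and RC4. In RC4 the median was −0.23 (−0.30 to −0.17) for pairs 300 to 499 nt apart, −0.23 (−0.32 to −0.15) for 500 to 699 nt, −0.43 (−0.50 to −0.32) for 700 to 999 nt and −0.43 (−0.52 to −0.34) for 1000 to 1500 nt. The step lay between the bins below and above 700 nt. In AS the medians of the same bins were −0.08, −0.14, −0.14 and −0.18, and in RC8 they were −0.20, −0.14, −0.15 and −0.21. Spearman's rho between distance and change over members was −0.12, −0.16 and −0.04 for AS, RC4 and RC8, given as a description over genes that share the same libraries.

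**Figure D2:**
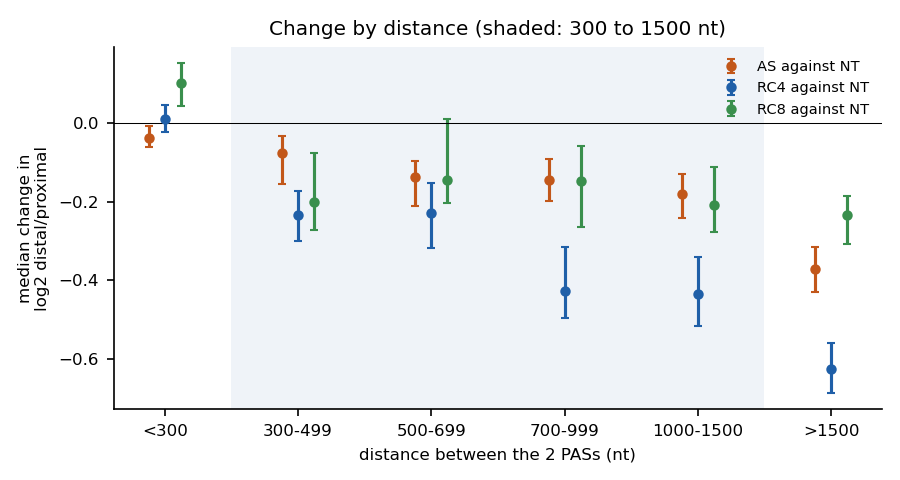
Median change in log2 distal over proximal (y axis) by the distance between the PASs in nt (x axis) for AS, RC4 and RC8 against NT, with 95% order-statistic intervals over genes as bars. In the shaded range of 300 to 1500 nt, the RC4 medians are at −0.23 below 700 nt and at −0.43 above, while the RC8 medians stay between −0.14 and −0.21.

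The neighbouring distances stood on either side. Pairs under 300 nt apart had medians of −0.04, 0.01 and 0.10 for AS, RC4 and RC8, and pairs over 1500 nt apart had −0.37, −0.63 and −0.23. The part of read assignment between close PASs in the values under 300 nt was not tested. In RC8 the interval of the members (−0.22 to −0.13) overlapped that of the longer pairs (−0.31 to −0.18), whereas in AS and RC4 the intervals did not overlap. Medians just inside and just outside the limits of 300 and 1500 nt had overlapping intervals. Pairs of 270 to 299 nt had medians of −0.04, −0.18 and 0.03 in AS, RC4 and RC8, and pairs of 300 to 330 nt had −0.07, −0.06 and −0.08. Pairs of 1400 to 1500 nt had medians of −0.17, −0.45 and −0.21, and pairs of 1501 to 1600 nt had −0.08, −0.45 and −0.33.

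Among genes nearest the lower limit, Ugcg, the ceramide glucosyltransferase, has PASs 300 nt apart and a change of 0.37 ± 0.19 (counting error) in AS, 0.06 ± 0.17 in RC4 and 0.82 ± 0.16 in RC8. Also at 300 nt, Hnrnpul1 had −0.42 ± 0.11 in AS and Vcp, an AAA ATPase of protein quality control, had −0.57 ± 0.03 in RC8, and Cox11 at 301 nt is described below. Just outside, at 299 nt, Rpl13a of the large ribosomal subunit had −0.05 ± 0.03, −0.21 ± 0.03 and −0.12 ± 0.03 in AS, RC4 and RC8, and Rsrp1 had −0.04 ± 0.09, −0.46 ± 0.12 and −0.26 ± 0.11. At the upper limit, Tomm70a, an import receptor of the mitochondrial outer membrane with PASs 1500 nt apart, had −0.92 ± 0.07 in AS and 0.11 ± 0.07 in RC4. Ogt, the O-GlcNAc transferase, at 1498 nt had −1.12 ± 0.22 in AS and −1.30 ± 0.22 in RC8, and Tbpl1 at 1498 nt had −0.40 ± 0.11 in RC4 and −0.80 ± 0.12 in RC8. Just outside, Sap18 at 1503 nt had 0.16 ± 0.20, 0.34 ± 0.24 and −0.19 ± 0.26 in AS, RC4 and RC8, Sumo2 at 1501 nt had 1.58 ± 0.34 in AS, and Rbm18 at 1506 nt had −0.22 ± 0.19 in RC4 and −0.54 ± 0.20 in RC8.

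The levels of both isoforms were then taken apart. Isoform reads were first divided by the total of the library. The median gene of the RC4 table was at −0.30 relative to NT on that scale, the median gene of AS at −0.04 and that of RC8 at 0.01, so isoform changes are given relative to the median gene of the table. Such values cannot tell a change in RNA per cell. Relative to the median gene, the proximal isoform had a median change of 0.03, 0.16 and 0.11 for AS, RC4 and RC8. The distal isoform had −0.10, −0.17 and −0.04. Scaled to total reads instead, the proximal medians were −0.02, −0.15 and 0.11 and the distal medians −0.14, −0.48 and −0.03, so the sign of the proximal median in AS and RC4 turned with the scaling and that of the distal median did not. On either scale the distal isoform had the lower median.

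Members fell into all combinations of isoform changes. Proximal above and distal below the median gene was found in 232 members in AS (26.0%), beside 26.4% of all tandem pairs, in 224 in RC4 (26.2%), beside 23.1%, and in 202 in RC8 (22.7%), beside 20.5%. The opposite combination was found in 101 members in AS (11.3%), beside 14.5% of all tandem pairs, in 51 in RC4 (5.96%), beside 9.61%, and in 110 in RC8 (12.4%), beside 16.4%. In the other members both isoforms were on the same side of the median gene. Among the 116 members at least 2-fold lower in RC4, 73 had the proximal isoform above and the distal isoform below the median gene, 23 had both above and 20 had both below. Their median change was 0.68 for the proximal and −0.67 for the distal isoform. In AS, 26 of the 33 such members were of the first kind, and in RC8 62 of 97. These shares of 78.8% in AS, 62.9% in RC4 and 63.9% in RC8 stood beside 76.9%, 65.5% and 64.5% among all tandem pairs at least 2-fold lower, so they were close to those of pairs at any distance.

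**Figure D3:**
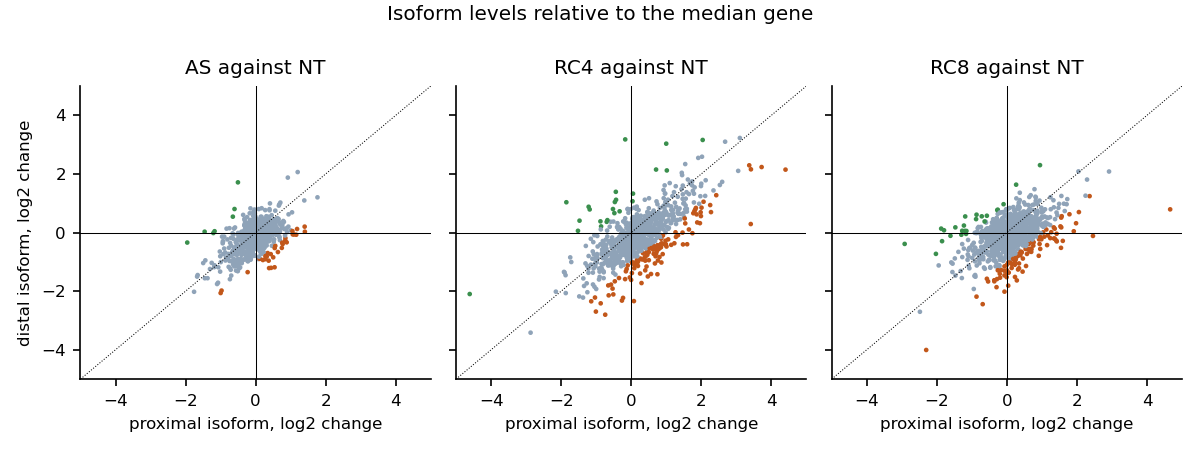
Log2 change from NT of the proximal isoform (x axis) and the distal isoform (y axis), relative to the median gene of the table, for each member in AS, RC4 and RC8. Orange points are at least 2-fold lower and green points at least 2-fold higher in distal over proximal, and the dotted line marks equal change. In RC4 116 points are orange and 23 green.

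The libraries of the time course were also compared directly, without NT, over the 578 genes with the same PASs in 3 tables. From AS to RC4 the ratio was lower in 364 genes and higher in 210, with a median difference of −0.16 (quartiles −0.49 and 0.19). Lower genes were 63.0% of members, beside 53.7% of the tandem pairs at any distance with the same PASs in 3 tables. From RC4 to RC8 it was higher in 357 genes and lower in 220, with a median difference of 0.15 (quartiles −0.20 and 0.54). Higher genes were 61.8% of members, beside 60.1%. From AS to RC8 the median difference was −0.01. Both steps use the RC4 library, so a property of that 1 library would enter both with opposite sign.

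Among the genes that passed the reads and share minimums in every library, Hnrnpf was among the 6 lowest in each comparison. It codes for a G-tract-binding RNA protein of splicing and lies on chromosome 6, with the proximal PAS at 117874928 and the distal PAS at 117875646. Its distal share was 78.7% of 2941 reads in NT, 61.9% of 1925 in AS, 48.1% of 845 in RC4 and 48.9% of 1196 in RC8. The changes were −1.19 ± 0.09, −2.00 ± 0.12 and −1.95 ± 0.11. The distal isoform was at −0.91, −2.23 and −2.02 relative to the median gene, and the proximal isoform at 0.28, −0.23 and −0.07. The lower ratio thus went with fewer distal reads. The listed proximal PAS of Hnrnpf is in coding sequence, and its distal PAS lies outside the annotated exons of the gene.

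Hmgb2, a DNA-bending chromatin protein of proliferating cells, had the lowest change of the named genes in RC4. It lies on chromosome 8, with PASs at 59992906 and 59993292. Its distal share was 82.9% of 2051 reads in NT, 70.6% of 1700 in AS, 47.6% of 581 in RC4 and 66.2% of 828 in RC8. The changes were −1.01 ± 0.11, −2.42 ± 0.15 and −1.31 ± 0.14, so that RC8 stood between AS and RC4 in level. In RC4 the distal isoform was at −2.34 relative to the median gene and the proximal isoform at 0.08. Near-identical processed pseudogenes can share reads with their parent gene. Reads with several matches were kept at mapping, and how they were then assigned to genes is not given in the sources used here. The values of Hmgb2, Hmga1, Actb and Rpl27a are uncertain for this reason.

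Papd4, the noncanonical poly(A) polymerase Gld2, lies on chromosome 13 with PASs at 93917490 and 93916232. Its distal share was 51.6% of 323 reads in NT, 25.4% of 275 in AS, 29.5% of 327 in RC4 and 30.4% of 360 in RC8. The changes were −1.65 ± 0.26, −1.35 ± 0.24 and −1.29 ± 0.23, which differ from one another by less than 2 counting errors. All 3 treated libraries were low. Papd5, a noncanonical poly(A) polymerase that works in nuclear RNA surveillance, had its own lowest distal share in AS. Its distal shares were 92.6%, 85.1%, 89.5% and 91.9% in the NT, AS, RC4 and RC8 libraries, with changes of −1.13 ± 0.20, −0.56 ± 0.18 and −0.14 ± 0.19.

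Cmpk1, the UMP/CMP kinase of pyrimidine nucleotide synthesis, lies on chromosome 4 with PASs at 114634181 and 114633243. Its distal shares were 80.4%, 68.5%, 56.0% and 55.0% in the NT, AS, RC4 and RC8 libraries. The changes were −0.92 ± 0.13, −1.69 ± 0.14 and −1.75 ± 0.14. Its reads were 1484 in NT and 716 in RC4, and the distal isoform alone was below the median gene. Cox11, a copper carrier needed for cytochrome c oxidase assembly, had distal shares of 93.1%, 85.4%, 84.6% and 80.2% in NT, AS, RC4 and RC8. Its proximal isoform was above the median gene by 1.40, 1.06 and 1.43 on the log2 scale, and its changes were −1.20 ± 0.32, −1.29 ± 0.34 and −1.73 ± 0.32.

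Supt7l, a subunit of a SAGA-type histone acetyltransferase complex, had distal shares of 86.2%, 81.6%, 64.7% and 62.9% in the NT, AS, RC4 and RC8 libraries. The changes were −0.49 ± 0.35, −1.77 ± 0.33 and −1.88 ± 0.33, on 239 to 294 reads per library. The difference in AS was under 2 counting errors. Cep76, a centriolar protein, had distal shares of 65.3%, 45.7%, 43.5% and 52.4%, with changes of −1.16 ± 0.24, −1.29 ± 0.22 and −0.77 ± 0.24. The uncharacterized 9130008F23Rik had its own lowest distal share in AS, at 18.5% beside 35.4% in NT, 32.8% in RC4 and 36.9% in RC8.

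Other genes were among the 6 lowest at a recovery time. Lrpap1, the receptor-associated chaperone of LDL receptor family proteins, had a distal share of 13.6% in RC4 beside 33.1% in NT, 32.0% in AS and 31.6% in RC8. Its changes were −0.07 ± 0.17, −1.65 ± 0.23 and −0.10 ± 0.17, so the RC4 library stood apart from the other 3. Tdp2, which removes trapped topoisomerase from DNA ends, had distal shares of 68.9%, 58.4%, 42.3% and 50.9% and an A tract at its distal PAS. Pdcd10, the cerebral cavernous malformation protein CCM3, had 30.9%, 21.4%, 25.6% and 11.5%, and Snx8, an endosomal sorting nexin, had 92.1%, 90.6%, 85.2% and 76.1%. Their changes in RC8 were −1.78 ± 0.21 and −1.87 ± 0.23. For Snx8 the proximal isoform was above the median gene by 1.91 in RC8 while the distal isoform was at 0.04.

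**Figure D4:**
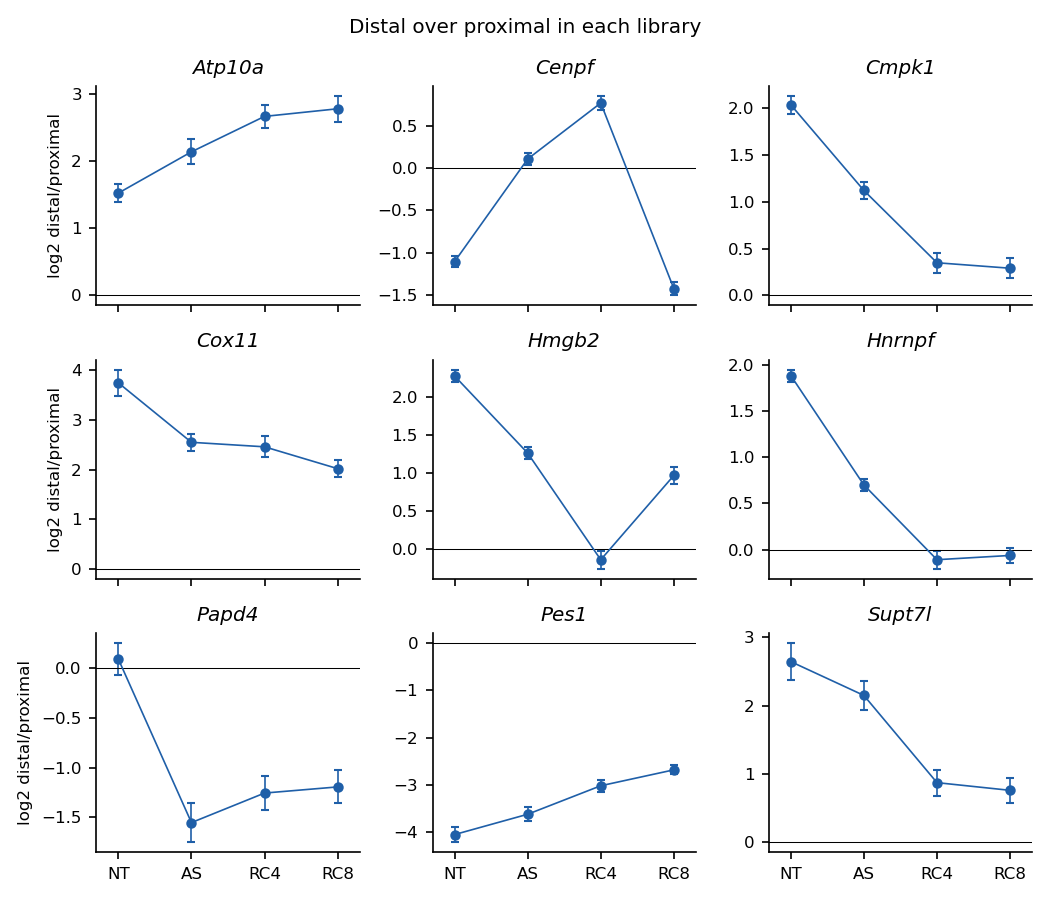
Log2 distal over proximal (y axis, own scale in each panel) in the NT, AS, RC4 and RC8 libraries (x axis) for the genes at an end of the distribution in 1 comparison or among the 6 at the same end in several, with ± 1 counting error as bars. Cenpf turned back below NT in RC8, whereas Hnrnpf and Cmpk1 stayed low, at changes of −1.95 and −1.75.

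Cenpf, a kinetochore protein made in the G2 and M phases, was higher in AS and RC4. It lies on chromosome 1 with PASs at 191465860 and 191464485. Its distal share was 31.7% of 2339 reads in NT, 51.9% of 1424 in AS, 63.1% of 1281 in RC4 and 27.1% of 1675 in RC8. The changes were 1.22 ± 0.10, 1.88 ± 0.11 and −0.32 ± 0.10, so RC8 was below NT again. The part of the A run at its distal PAS in these values was not tested. The proximal isoform was at −1.17, −1.48 and −0.42 relative to the median gene, and the distal isoform at 0.05, 0.41 and −0.74.

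Pes1, a ribosome biogenesis factor, lies on chromosome 11 with PASs at 3879217 and 3880003. Its long isoform was minor in every library, at 5.70% of 1394 NT reads and 7.53%, 11.0% and 13.5% of those of AS, RC4 and RC8. The changes were 0.43 ± 0.22, 1.03 ± 0.21 and 1.37 ± 0.19. Atp10a, a phospholipid flippase of the plasma membrane, was among the 6 highest in each comparison, with distal shares of 74.2%, 81.5%, 86.4% and 87.3% and changes of 0.62 ± 0.23, 1.14 ± 0.22 and 1.26 ± 0.24. Gnai2, an inhibitory G protein subunit, had its own highest distal share in RC8, at 86.8% beside 73.8% in NT, 69.5% in AS and 71.7% in RC4. Its changes were −0.31 ± 0.07, −0.15 ± 0.08 and 1.22 ± 0.09. Both PASs of Gnai2 lie at an A tract.

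Further genes were among the 6 highest in 1 comparison. In AS they were Trim26, a RING ubiquitin ligase, with 84.9% distal beside 71.1% in NT, Dirc2, a lysosomal membrane transporter, with 41.9% beside 30.0%, Trmt61a, a tRNA methyltransferase subunit, with 90.0% beside 85.1%, and Anp32a, an acidic nuclear phosphoprotein, with 81.5% beside 74.0%. Their changes ran from 0.63 ± 0.24 in Anp32a to 1.19 ± 0.27 in Trim26. In RC4 they were Haus1, a subunit of the augmin complex of the spindle, with 72.1% beside 50.8%, Sike1, a regulator of IKK-related kinases, with 63.2% beside 45.0%, and Tor4a of the torsin family with 93.5% beside 87.3%. Sike1 has an A tract at its proximal PAS and Zbtb12, named next, at both. In RC8 they were Fam76b with 71.7% beside 50.1%, Zbtb12, a zinc finger protein, with 93.7% beside 85.8%, and Camsap2, which binds microtubule minus ends, with 90.2% beside 79.9%. For Fam76b, Zbtb12 and Camsap2 the proximal isoform was below the median gene in RC8 by at least 1.15 on the log2 scale, and the distal isoform was at 0.06, −0.73 and 0.05.

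The 6 named members with the most NT reads had changes between −0.52 and 0.36. Actb, cytoplasmic β-actin, had 98588 reads in NT and distal shares of 89.2%, 88.7%, 86.9% and 91.3% in NT, AS, RC4 and RC8, with changes of −0.07 ± 0.02, −0.32 ± 0.02 and 0.35 ± 0.02. Hnrnpk, an RNA-binding protein of splicing and translation, had 23.2%, 18.9%, 23.3% and 20.1%, and Rpl27a of the large ribosomal subunit had 22.1%, 25.8%, 20.4% and 19.8%. Rtn4, an endoplasmic reticulum-shaping reticulon, had 62.3%, 56.8%, 63.7% and 57.2%. Ccnd1, the G1 cyclin D1, had 66.1%, 66.3%, 65.2% and 57.7%, with a change of −0.52 ± 0.03 in RC8 and an A tract at both PASs. Hdgf, a nuclear growth factor, had 72.8%, 71.9%, 71.2% and 77.4%. Counting errors of these genes were 0.02 to 0.04. The changes of Ccnd1 in AS, at 0.01 ± 0.04, and of Hnrnpk in RC4, at 0.01 ± 0.03, were within 1 counting error.

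The 3 genes whose change varied least over the comparisons were Cript, Flt1 and Hmga1. Cript, which binds a PDZ domain of postsynaptic density proteins, had distal shares of 47.7%, 47.5%, 46.7% and 47.3%. Flt1, a receptor for vascular endothelial growth factor, had 41.2%, 43.5%, 44.3% and 44.2%, with an A tract at its proximal PAS. Hmga1, an AT-hook chromatin protein, had 8.17%, 10.1%, 9.81% and 9.80%. The changes of Hmga1 were 0.34 ± 0.17, 0.29 ± 0.19 and 0.31 ± 0.16, each close to 2 counting errors or less.

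Families of members were grouped by gene symbol prefix, so a family name does not give the function of each member. Membrane transport takes in Tmem genes, a prefix for transmembrane proteins of any function. Transcription takes in Med9, and kinases and phosphatases take in Prkrip1 and Cdkn2aip, which are neither. The values given are for members toward the low and high ends of a family and not always the most extreme. They were taken among members with at least 200 reads in both libraries. In vesicle traffic genes the median change was −0.11 over 29 members in AS, −0.43 over 29 in RC4 and −0.44 over 31 in RC8, beside −0.14, −0.32 and −0.16 over all members. At least 2-fold lower were 0, 7 and 8 of them, and 0, 2 and 0 were at least 2-fold higher. The shares to read this and the later family counts against are those over all members, 3.70%, 13.6% and 10.9% lower and 0.784%, 2.69% and 2.70% higher, and those over all tandem pairs, 4.83%, 13.0% and 9.19% lower and 2.48%, 5.36% and 8.54% higher. No family was tested. Sec16a, a scaffold of endoplasmic reticulum exit sites, went from 89.1% distal in NT to 68.9% in RC4 and 74.8% in RC8, with changes of −1.88 ± 0.29 and −1.46 ± 0.25. Tmed4, a cargo receptor of the early secretory pathway, was at −1.60 ± 0.28 in RC4, and Ap1s2, a clathrin adaptor subunit, was at −1.37 ± 0.17. Vps16 of the HOPS tethering complex was at 1.83 ± 0.33 in RC4, from 6.88% to 20.8% distal.

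In RNA processing and decay genes the median change was −0.28 over 19 members in AS, −0.33 over 17 in RC4 and −0.32 over 21 in RC8. Of these, 1, 3 and 4 were at least 2-fold lower, and 1 gene was at least 2-fold higher in RC8. Ddx5, a DEAD-box RNA helicase, had distal shares of 29.3%, 22.3%, 15.0% and 16.1% in the NT, AS, RC4 and RC8 libraries, with changes of −0.53 ± 0.05, −1.23 ± 0.05 and −1.11 ± 0.05. Cnot9, a subunit of the CCR4-NOT deadenylase complex, was at −1.08 ± 0.29 in RC4. The 1 higher gene was Hnrnpr in RC8, at 2.53 ± 0.48, from 91.5% to 98.4% distal.

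In ubiquitin and proteasome genes the median was −0.16 over 35 members in AS, −0.22 over 32 in RC4 and −0.27 over 35 in RC8. At least 2-fold lower were 3, 1 and 2 members, and at least 2-fold higher were 1, 1 and 4. Usp42, a deubiquitinase, was at 1.47 ± 0.26 in RC8 and Rnf111, the ubiquitin ligase Arkadia, at 1.04 ± 0.22.

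In cytoskeleton and matrix genes the median was −0.11 over 16 members in AS, −0.34 over 16 in RC4 and −0.45 over 15 in RC8. Cdh2, N-cadherin, was at −0.78 ± 0.14, −1.14 ± 0.13 and −1.40 ± 0.14. Col1a1, the α1 chain of collagen I, had 15048 reads in NT and a distal share of 11.2%, and it differed by time, with 4.52% and a change of −1.41 ± 0.08 in RC4 and 16.0% and 0.59 ± 0.06 in RC8. Capza1, an actin capping subunit, was at 0.68 ± 0.20 in AS and 1.28 ± 0.18 in RC4.

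Chromatin genes had medians of −0.30, −0.21 and −0.10 over 18 members in each table, and H1f0, a linker histone, was at −1.20 ± 0.10 in RC4, from 80.1% to 63.6% distal. Membrane transport genes had medians of −0.01 over 33, −0.41 over 33 and −0.16 over 35 members, with Slc6a8, the creatine transporter, at −1.32 ± 0.13 in RC4. Mitochondrial genes had −0.05 over 24, −0.33 over 21 and 0.06 over 21 members. Kinase and phosphatase genes had −0.12 over 22, −0.36 over 22 and −0.41 over 23 members. Mapk8, the stress-activated kinase JNK1, was at the upper end of that family, with 72.3% distal in NT and 91.1% in RC4 and a change of 1.97 ± 0.23, and Ptp4a1, a protein tyrosine phosphatase, was at the lower end with −1.54 ± 0.12.

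Genes of the transcription family had −0.23 over 28, −0.44 over 22 and −0.05 over 24 members. Chaperone genes had −0.16 over 9, −0.06 over 12 and −0.21 over 6 members, and Dnaja1, an Hsp40 co-chaperone, was at 0.63 ± 0.04 in RC4, from 47.9% to 58.8% distal. Translation genes had 0.12 over 8, −0.30 over 5 and 0.33 over 7 members. Eif1a, an initiation factor of start site scanning, was at −0.37 ± 0.07 in AS, −0.30 ± 0.06 in RC4 and 0.41 ± 0.06 in RC8. Families of under 10 members are given for their values only.

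The stretch between the PASs was searched for elements of the long isoform. TGTANATA, the DNA letters of the Pumilio recognition element, was found on the transcribed strand in 17.0% of the 1216 pairs and in 17.7% of all tandem pairs, and ATTTA, the core of AU-rich elements, in 67.9% and 58.6%. The longer TATTTAT, which contains ATTTA, was found in 21.4% and 21.6%. Pumilio proteins and many AU-rich element-binding proteins recruit deadenylases. A match is a description of the letters and not a bound site.

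Members with TGTANATA had a lower median change in AS, at −0.27 (−0.37 to −0.19) over 151 pairs, than members without it, at −0.12 (−0.15 to −0.09) over 742. The ratio was below NT in 82.8% and 64.0% of them, beside 77.9% and 60.6% of all tandem pairs with and without the motif. Over all tandem pairs the AS medians were −0.33 and −0.10, so the difference was not particular to members. Scaled to total reads, the distal isoform of members had AS medians of −0.41 with the motif and −0.10 without. The proximal isoform, which lacks the stretch, had −0.11 and −0.003, so both isoforms were lower with the motif. The median GC content of the stretch was 39.1% and 43.3%. Spearman's rho between GC content and change in AS was 0.16, and its part was not tested. Members with the motif had PASs farther apart, with a median distance of 945 nt against 681.5 nt, and distance went with the change. Within pairs 300 to 699 nt apart, the AS medians were −0.27 (−0.40 to −0.18) over 44 pairs with the motif and −0.11 (−0.14 to −0.05) over 380 without. Within 700 to 1500 nt they were −0.27 (−0.41 to −0.15) over 107 and −0.14 (−0.17 to −0.09) over 362. The intervals did not overlap in the shorter range and overlapped slightly in the longer one.

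**Figure D5:**
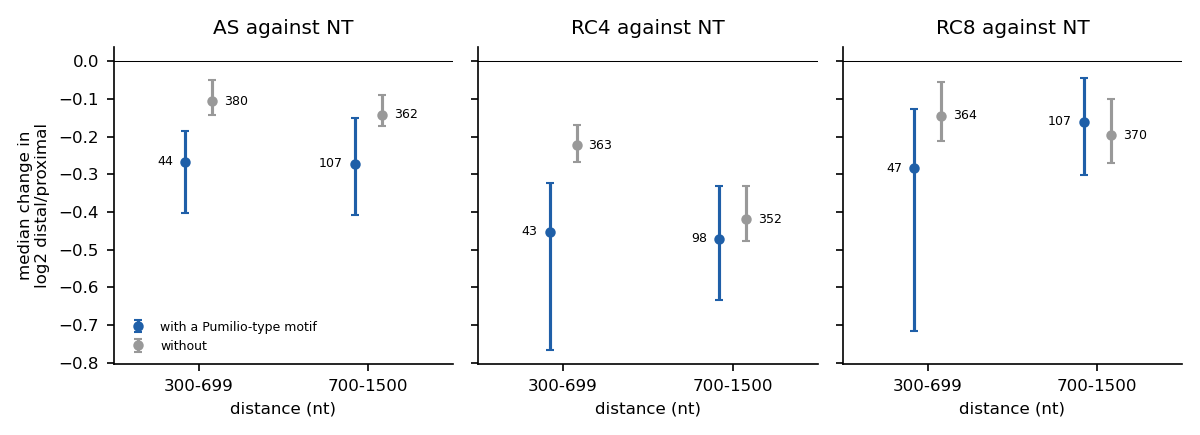
Median change in log2 distal over proximal (y axis) for members with and without the Pumilio-type motif between the PASs, split by distance in nt (x axis), 1 panel per comparison. Bars are 95% order-statistic intervals over genes and the numbers count pairs. In AS the medians are −0.27 with the motif in both ranges, and −0.11 and −0.14 without it.

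In RC4 the medians of the members were −0.47 over 141 pairs with TGTANATA and −0.30 over 715 without, beside −0.48 and −0.17 over all tandem pairs. Within 300 to 699 nt they were −0.45 (−0.77 to −0.32) and −0.22 (−0.27 to −0.17), but within 700 to 1500 nt they were −0.47 (−0.63 to −0.33) and −0.42 (−0.48 to −0.33). In RC8 they were −0.28 (−0.72 to −0.13) and −0.14 (−0.21 to −0.05) in the shorter range and −0.16 (−0.30 to −0.04) and −0.20 (−0.27 to −0.10) in the longer one, where the order was turned. For ATTTA the AS medians were −0.17 with and −0.09 without, the RC4 medians −0.35 and −0.25 and the RC8 medians −0.16 and −0.15. Members with ATTTA also held more sequence between their PASs, and base composition was not matched in either split.

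The signal hexamers at the PASs went with the NT ratio. In the AS table the median NT ratio was 1.07 over the 285 members with AATAAA or ATTAAA at the distal PAS alone, 0.66 over the 295 with one at both PASs, 0.59 over the 201 with one at neither and 0.16 over the 112 with one at the proximal PAS alone. The median changes of the same classes in AS were −0.12, −0.16, −0.15 and −0.14, a range of less than the width of their intervals. In RC4 they were −0.33, −0.40, −0.23 and −0.28. The 95% interval of the class with a signal at both PASs was −0.47 to −0.33 and that of the class with a signal at neither was −0.32 to −0.13. The median distances of these classes were 780 and 659 nt, and distance went with the change in RC4. The classes were not split by distance, so hexamers and distance cannot be told apart here. In RC8 the medians were −0.18, −0.14, −0.16 and −0.28, with the widest interval, −0.42 to −0.05, in the class with a signal at the proximal PAS alone.

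The listed PASs come from PolyA_DB, whose sites by the paper were mapped with 3′READS, a method that does not depend on oligo(dT). The paper states that internal priming therefore does not affect the PASs that MAAPER predicts. An A tract in the genome can prime oligo(dT), and was taken as a run of at least 6 A or at least 7 A in 10 nt. In the 20 nt after the listed base it was found at 98 proximal and 100 distal PASs of the 1216 pairs, or 8.06% and 8.22%, beside 6.76% and 6.40% over all tandem pairs. The base after the listed one was an A at 0 of 6654 PASs, so a run of A that spans the cleavage site ends at the listed base and can lie outside this window. With the 10 nt that end at the PAS included, A tracts were found at 257 proximal and 257 distal PASs (21.1% each), beside 17.6% and 18.8% over all tandem pairs. The proximal PASs of Actb, Ccnd1, Flt1 and Zbtb12 end in runs of 12, 16, 15 and 13 A, and the distal PASs of Ccnd1 and Cenpf in 11 and 10. Among the named genes, Atp10a, Cmpk1, Gnai2 and Sike1 also have a tract at the proximal PAS, and 9130008F23Rik, Actb, Gnai2, Hdgf, Pdcd10, Rpl27a, Tdp2 and Zbtb12 at the distal PAS. The tracts are the same in all libraries, and their part in the values was not tested. Members with no A tract in the wider window at either PAS had median changes of −0.14, −0.34 and −0.16 for AS, RC4 and RC8. Members with a proximal PAS in coding sequence were 16, 11 and 12 in the 3 tables and had medians of −0.26, −0.23 and 0.29. Members whose distal PAS lies outside the annotated exons had −0.19, −0.25 and −0.18 over 198, 203 and 204 pairs. The median was negative in each table for pairs without A tracts and for pairs with a distal PAS outside the annotated exons. For pairs with a proximal PAS in coding sequence it was positive in RC8, and its AS interval was −0.74 to 0.14. These are descriptions of subsets, and the part of tracts or annotation in the changes was not tested.

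The reads of cleavage and polyadenylation factor genes themselves were compared over a list of 22 genes, all listed in each table. Pabpc1, a cytoplasmic poly(A)-binding protein, is also among these 22 genes. Relative to the median gene, the median log2 change in their reads was −0.04 after arsenite, −0.08 at RC4 and −0.05 at RC8. In AS 1 of 22 was at least 2-fold lower, beside 2.93% of all genes, and 0 were at least 2-fold higher, beside 0.718%. That gene was Cpsf2, a CPSF subunit, at −1.11 ± 0.05, with 2287 reads in NT and 1024 in AS. In RC4 0 of 22 were at least 2-fold lower and 0 higher, beside 6.38% of all genes in each direction, and in RC8 0 lower and 0 higher, beside 3.59% and 2.95%. The lowest values there were −0.78 ± 0.07 for Wdr33, the hexamer-reading CPSF subunit, in RC4 and −0.92 ± 0.03 for Pabpn1, the nuclear poly(A)-binding protein, in RC8. The highest value in each table was that of Papolg, a poly(A) polymerase, at 0.43 ± 0.18, 0.58 ± 0.18 and 0.86 ± 0.16 on 118 NT reads. Of the 22, Cstf1, a subunit of the cleavage stimulation factor, was itself a member, and its distal over proximal change was −0.24 ± 0.24, −0.33 ± 0.31 and −0.30 ± 0.23 for AS, RC4 and RC8.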

How the data were processed

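The authors trimmed the QuantSeq FWD reads with bbmap, mapped them to mm9 with STAR (2.5.2a per the submitters' processing notes) and ran MAAPER with PolyA_DB PASs. Raw counts by gene were deposited by the authors as a pair of columns for each library, and these were summed here. The authors also deposited, for NT and 1 treated library per table, the estimated fraction of reads at each PAS. NT counts were equal for 74.1% to 74.8% of genes shared by 2 tables. Deposited P values and the RED and RLD scores of the authors' own comparisons were not used. The QuantSeq REV libraries were not analysed here.

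Isoform reads were counts times fractions. Counting errors were propagated from the 4 isoform read numbers. Intervals are at 95%. The scoring was tested on simulated data. Python 3.11.15, pandas 2.3.3, scipy 1.17.1, matplotlib 3.10.9, pysam 0.24.0 and samtools 1.23.1 were used. Genome and GENCODE vM1 annotation were of NCBIM37, the same assembly as mm9. Fractions and ratios are independent of depth scaling.

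Named genes had the same PASs in 3 tables, at least 200 reads in both libraries of each and both PASs at 5% or more throughout, which held for 453 genes. The 6 lowest and 6 highest changes per comparison, the 6 with most NT reads and the 3 with the smallest range were named, with the 2 genes inside and outside each distance limit. Examples in gene families and PASs shown were picked by their position at an end. Of these family examples, 1 is not reported here. The members and lists were chosen with earlier results of these data known.

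Alternatives were read and share minimums, 0.5 read added per PAS, a distance of 500 to 1500 nt, the same PASs in 3 tables, leaving out PASs listed for several genes or with A tracts, scaling to the median gene and, chosen after seeing the data, proximal PASs in an annotated 3′UTR only and a wider A tract window.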

Additional observations from a re-analysis of the deposited data

How the results depend on the processing

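The 15 summary values (the median change, the percent of pairs at least 2-fold lower and higher, and the median proximal and distal level, for AS, RC4 and RC8) were recomputed to give 141 alternative values, of which 129 stayed within the 95% interval of the value reported. The median change in distal over proximal stayed within its interval, and negative, under every alternative run in each comparison. Scaling to the median gene reversed the median proximal level to 0.026 in AS and 0.16 in RC4, and moved the median distal level to −0.10 in AS and −0.17 in RC4. With the same PASs in 3 tables, the percent of pairs at least 2-fold lower in RC4 was 11.1% and at least 2-fold higher 1.73%, the median proximal level was −0.20 in RC4 and 0.075 in RC8, and the median distal level in RC8 was −0.10. A distance of 500 to 1500 nt gave a median distal level of −0.54 in RC4. With both PASs at 5% or more, 8.94% of pairs were at least 2-fold lower in RC8. Leaving out A tracts from 10 nt before a PAS, an alternative chosen after seeing the data, turned the median proximal level in AS to 0.0052, from −0.015. The cause of these differences was not tested, apart from the scaling, which shifts both isoforms by the median gene of the table. No paired analysis was possible because each condition has 1 library. Depth limits single genes, with a median counting error of 0.20 to 0.22 on the log2 scale, and no value here covers variation between cultures.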
